A study of Mus musculus with 20 samples.

Results

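The 10 genes described here are 5 ligands of the bone morphogenetic protein (BMP) family, Bmp2, Bmp4, Bmp5, Bmp6 and Bmp7, the 4 Id genes, Id1, Id2, Id3 and Id4, and the homeobox gene Msx2. They were chosen by gene symbol, and each was found under 1 entry in every table, 10 of 37561 entries in all. Transcripts were measured by RNA-seq in the mouse embryonic stem cell line ESD3 (strain 129s2/SvPas), kept on feeders of mouse embryo fibroblasts and differentiated as spherical neural masses toward dopaminergic neurons. The control line carried a short hairpin RNA against luciferase and the HPRT knockdown line one against HPRT, the purine salvage enzyme whose loss causes Lesch Nyhan disease. Both lines were selected with puromycin, and each line was made once, so a difference between the lines cannot be told apart from a difference between these 2 cell populations. Each line gave 1 library a day from day 0 to day 4 and then 1 on every second day from day 6 to day 14, which is 20 libraries with no replicate within a day, and the RNAs of a time point had been pooled. Errors below are standard deviations (SD) over 9 days, all but day 6, which the study left out of its pathway analysis as discrepant.

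BMPs are secreted ligands of the TGF-beta superfamily. They bind pairs of type I and type II serine/threonine kinase receptors, which phosphorylate Smad1, Smad5 and Smad9, and these enter the nucleus with Smad4 and act on target genes. The Id genes and Msx2 are classical targets of this signal. Id proteins have a helix-loop-helix domain without the DNA-binding part, and they hold E proteins away from DNA and so restrain neuronal differentiation factors. In the embryonic nervous system BMPs limit neural induction, pattern the dorsal neural tube and favor astrocytes over neurons and oligodendrocytes.

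The deposited values give the ratio of 2 libraries for each gene on a log2 scale and no level. A log2 ratio of 1 is a doubling in the knockdown. Hprt, the targeted gene, was lower in the knockdown library on all 9 days, with a mean log2 ratio of -4.00 ± 0.89 (SD, n = 9 days), and on day 6, with -3.42. Library size factors relative to the median library lay between 0.823 and 1.6, and the factor of the knockdown over that of the control lay between 0.571 (day 3) and 1.48 (day 0). Of the cell type markers examined, 8 of 8 pluripotency genes and 5 of 7 neuronal genes tested were lower in the knockdown, with median log2 ratios of -2.81 and -1.88. In contrast, 7 of 8 astrocyte genes and 5 of 9 oligodendrocyte lineage genes were higher, with medians of 1.27 and 2.24. Of 8 neural progenitor genes tested, 2 were higher and 2 were lower. In 4 further groups 0 were higher. Lower there were 1 of 6 extraembryonic endoderm, 2 of 5 endothelium, 1 of 5 choroid plexus and roof plate, and 1 of 5 neural crest genes tested. Over all 13608 genes tested, 3562 were higher and 3579 were lower by the same limma test. Of the 9 fibroblast and mesenchyme genes, which the feeders would also express, Lum and Postn were lower by limma with adjusted p under 0.05 and the others did not pass (median log2 ratio -0.32). The part of these cell types in the ratios below was not tested, and in bulk RNA fewer cells of a type and less RNA per cell cannot be told apart.

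Of the 10 members, 6 were higher in the HPRT knockdown and 0 were lower: Bmp2, Bmp4, Bmp5, Bmp7, Id1 and Id3 (limma on the daily ratios, Benjamini-Hochberg adjusted p under 0.05 over 13608 genes). None was lower at an unadjusted p under 0.05 either. All 10 members passed the filter on low values. The lines differed widely, since 52.5% of all genes tested were called in either direction and 26.2% were called higher in the knockdown. The median log2 ratio of the 10 members was 0.55, beside 0.01 over all genes tested. Bmp6, Id2, Id4 and Msx2 did not pass the test, with mean log2 ratios between 0.16 and 0.40. With day 6 kept in the fit 5 members were called, and Bmp2 was the one lost (mean log2 ratio 0.48, limma adjusted p = 0.0718).

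**Figure D1:**
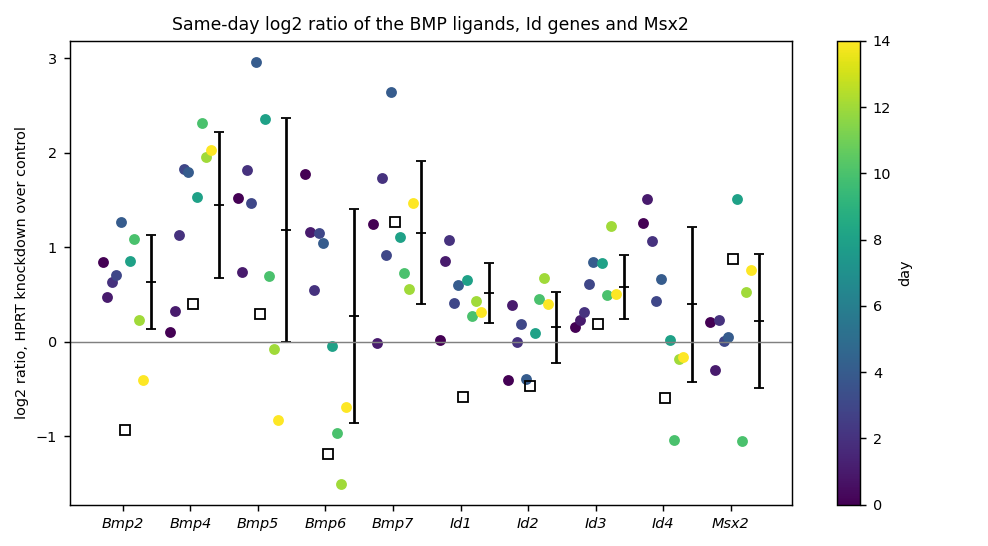
Log2 ratio of the HPRT knockdown over the control (vertical axis) for each member (horizontal axis), 1 point per day, colored by day, with day 6 as an open square and the mean ± SD of the other 9 days in black. All 9 points of Bmp4, Id1 and Id3 lie above 0, while those of Bmp6 and Id4 lie on both sides.

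The upstream sequences of the 4 Id genes are shown as a description. Whether the ratios of Id1 and Id3 differed from those of Id2 and Id4 was not tested. Each is the 250 bases before the gene's first annotated base (NCBIM37, the build of the files, with GENCODE vM1), 5′ to 3′ on the strand of the gene. Capitals mark GGCGCC, a GC-rich element bound by BMP Smads, and CAGAC or its reverse complement GTCTG, which holds the core of the Smad binding element. They lie at chr2:152561737-152561986 (plus strand) for Id1, chr12:25780958-25781207 (minus strand) for Id2, chr4:135699162-135699411 (plus strand) for Id3 and chr13:48356546-48356795 (plus strand) for Id4.
Id1: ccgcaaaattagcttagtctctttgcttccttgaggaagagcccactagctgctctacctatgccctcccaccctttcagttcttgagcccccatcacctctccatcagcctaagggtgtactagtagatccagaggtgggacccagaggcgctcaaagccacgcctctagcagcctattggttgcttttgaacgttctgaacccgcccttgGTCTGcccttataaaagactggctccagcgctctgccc
Id2: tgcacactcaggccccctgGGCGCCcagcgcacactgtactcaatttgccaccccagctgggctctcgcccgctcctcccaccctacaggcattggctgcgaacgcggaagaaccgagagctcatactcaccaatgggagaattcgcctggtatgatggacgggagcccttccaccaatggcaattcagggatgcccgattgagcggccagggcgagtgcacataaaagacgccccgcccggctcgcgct
Id3: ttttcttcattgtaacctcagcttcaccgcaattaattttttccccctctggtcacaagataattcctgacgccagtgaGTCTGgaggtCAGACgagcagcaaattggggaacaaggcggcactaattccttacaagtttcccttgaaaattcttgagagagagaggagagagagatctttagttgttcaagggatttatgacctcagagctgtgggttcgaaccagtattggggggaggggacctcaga
Id4: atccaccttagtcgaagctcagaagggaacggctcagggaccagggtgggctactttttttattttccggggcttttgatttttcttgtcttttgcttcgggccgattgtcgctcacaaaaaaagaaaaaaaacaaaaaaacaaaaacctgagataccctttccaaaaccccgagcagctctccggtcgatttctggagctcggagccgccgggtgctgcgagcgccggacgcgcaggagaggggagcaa
The CAGAC motif, searched on both strands, had 1 match in the Id1 window, 2 in that of Id3 and 0 in those of Id2 and Id4, and 40.8% of the windows of all 22238 protein-coding genes held it. GGCGCC, which reads the same on both strands and does not overlap CAGAC here, had 1 match in the Id2 window and 0 in the other three, beside 11.2% of all windows. In the same window of the other members, CAGAC had 1 match each for Bmp5 and Bmp7. It had 0 for Bmp2 and Bmp4, which were called higher, and 0 for Bmp6 and Msx2, which did not pass. A match is a description of these letters and not a site of binding. Bases outside these windows of 250 bases were not searched.

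Bmp4, a ligand of the dorsal neural tube and of early mesoderm, had the highest mean ratio of the members. The gene lies on chromosome 14, 47003195 to 47010344, minus strand. The log2 ratios of Bmp4 were 0.10, 0.32, 1.14, 1.83 and 1.796 on the first 5 days sampled, day 0 to day 4. Day 6 gave 0.40, and the 4 later days, from day 8 to day 14, gave 1.53, 2.32, 1.96 and 2.03. Every library of the knockdown was thus above the control library of its day, by little on days 0 and 1. The mean was 1.45 ± 0.78 (SD, n = 9 days), a 2.73-fold difference (limma adjusted p = 0.000827; exact permutation test by two-sided sign flips of the daily ratios, p = 0.00391, the smallest that 9 days allow). Reads behind the ratios were recovered for 8 libraries of Bmp4 and scaled to the others by the ratios. Normalized to the median library, they ran from 107 through a median of 164 to 198 in the 10 control libraries and from 135 through 408 to 877 in the 10 knockdown libraries. The ranges overlapped through the knockdown libraries of days 0 and 1.

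Bmp7, a ligand that can pair with BMP2 or BMP4 as a heterodimer, lies on chromosome 2, 172693513 to 172765822, minus strand. From day 0 to day 4 Bmp7 had log2 ratios of 1.25, -0.01, 1.74, 0.92 and 2.65. The ratio of day 6 was 1.27, and those from day 8 to day 14 were 1.12, 0.73, 0.55 and 1.47. The knockdown was higher on 8 of the 9 days, and day 1 showed almost no difference. The mean was 1.16 ± 0.76 (SD, n = 9 days; limma adjusted p = 0.00244). No number of reads could be recovered for Bmp7.

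Bmp5, a close relative of Bmp6 and Bmp7, lies on chromosome 9, 75623171 to 75748117, plus strand. Daily log2 ratios of Bmp5 were 1.52, 0.74, 1.82, 1.47 and 2.96 up to day 4. They were 2.36, 0.70, -0.08 and -0.82 from day 8 onward, with 0.29 on day 6 between them. The knockdown was higher through day 10 and the control was higher at the end. The mean was 1.19 ± 1.18 (SD, n = 9 days; limma adjusted p = 0.0184), and the call was lost with the exact sign-flip test over all genes (adjusted p = 0.06). Normalized reads ran from 74.8 through 129 to 482 in the control and from 141 through 263 to 583 in the knockdown, and the highest control value was that of day 14. The tables disagreed by up to 0.026 log2 units for Bmp5.

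Bmp2, which acts with Bmp4 through the same receptors, lies on chromosome 2, 133377895 to 133388621, plus strand. The log2 ratios of Bmp2 were 0.85, 0.47, 0.64, 0.71 and 1.26 on the first 5 days sampled, day 0 to day 4. Day 6 gave -0.94, and the 4 later days, from day 8 to day 14, gave 0.85, 1.09, 0.23 and -0.40. Knockdown values were thus higher on 8 of the 9 days, with day 14 the exception. The mean was 0.63 ± 0.50 (SD, n = 9 days; limma adjusted p = 0.00696). Bmp2 rested on few reads, with normalized values from 26.0 through 45.0 to 110 in the control and from 46.2 through 65.7 to 109 in the knockdown, and the ranges overlapped.

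Bmp6 changed sides during the course. The gene lies on chromosome 13, 38436995 to 38592183, plus strand, and its protein is best known as the regulator of hepcidin in iron balance. From day 0 to day 4 Bmp6 had log2 ratios of 1.77, 1.16, 0.55, 1.15 and 1.04. The ratio of day 6 was -1.19, and those from day 8 to day 14 were -0.04, -0.97, -1.50 and -0.69. The knockdown was higher on the 5 days to day 4 and lower on the 4 later days tested. The mean over the course was therefore small against its spread, 0.28 ± 1.13 (SD, n = 9 days; limma adjusted p = 0.519). Normalized reads ran from 10.2 through 40.0 to 113 in the control and from 19.8 through 45.7 to 69.2 in the knockdown.

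Among the Id genes, Id1 and Id3 were higher in the knockdown on each of the 9 days. Id1, on chromosome 2, 152561987 to 152563146, plus strand, encodes an inhibitor that responds within hours to BMP in many cells. Daily log2 ratios of Id1 were 0.02, 0.86, 1.07, 0.41 and 0.60 up to day 4. They were 0.65, 0.27, 0.43 and 0.32 from day 8 onward, with -0.59 on day 6 between them. The difference was thus near 0 on day 0, highest on day 2 and in the other direction on day 6. Over the 9 days the log2 ratio averaged 0.52 ± 0.32 (SD, n = 9 days), 1.43-fold (limma adjusted p = 0.00288; exact two-sided sign-flip permutation p = 0.00391). Normalized reads of Id1 ran from 980 through 1292 to 1932 in the control and from 976 through 1665 to 2393 in the knockdown, so the ranges overlapped widely although each pair but that of day 6 had the same order.

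Id3, on chromosome 4, 135699412 to 135701670, plus strand, is often expressed with Id1 in neural progenitors. The log2 ratios of Id3 were 0.16, 0.24, 0.32, 0.61 and 0.84 on the first 5 days sampled, day 0 to day 4. Day 6 gave 0.19, and the 4 later days, from day 8 to day 14, gave 0.84, 0.50, 1.23 and 0.50. The knockdown was higher on all 10 days. The mean was 0.58 ± 0.34 (SD, n = 9 days), 1.496-fold (limma adjusted p = 0.00206; exact two-sided sign-flip permutation p = 0.00391). Normalized reads ran from 944 through 1271 to 1626 in the control and from 1321 through 1662 to 2493 in the knockdown, with an overlap of the ranges.

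Id2, on chromosome 12, 25778666 to 25780957, minus strand, had a mean log2 ratio of 0.16 ± 0.38 (SD, n = 9 days; limma SE 0.12, adjusted p = 0.3). Its ratios over the 9 days ran from -0.40 to 0.67, with 7 of 9 days higher in the knockdown, and day 6 lay below that range at -0.47. Normalized reads ran from 771 to 1455 in the control and from 773 to 1473 in the knockdown, nearly the same range. Id4, on chromosome 13, 48356796 to 48359405, plus strand, is known for its part in the timing of neural and oligodendrocyte differentiation. From day 0 to day 4 Id4 had log2 ratios of 1.26, 1.51, 1.07, 0.43 and 0.66. The ratio of day 6 was -0.59, and those from day 8 to day 14 were 0.02, -1.04, -0.18 and -0.16. As with Bmp6, the early knockdown libraries were higher and most later ones were not. The mean was 0.40 ± 0.82 (SD, n = 9 days; limma adjusted p = 0.204), and without day 10 it was 0.58 and passed the test (limma adjusted p = 0.0483).

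Msx2, on chromosome 13, 53562250 to 53568443, minus strand, encodes a homeodomain repressor of the dorsal midline and neural crest. Daily log2 ratios of Msx2 were 0.21, -0.30, 0.23, 0.01 and 0.06 up to day 4. They were 1.51, -1.05, 0.53 and 0.76 from day 8 onward, with 0.88 on day 6 between them. The lines were close until day 4 and then scattered in both directions. The mean was 0.22 ± 0.71 (SD, n = 9 days; limma SE 0.22, adjusted p = 0.42). Msx2 rested on 14.8 to 121 reads a library, so single ratios carry counting error, and 65% of its recovered read numbers were whole.

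Levels between genes were compared per kilobase of exon, as the median of the 10 control libraries in normalized reads. Id1 was highest at 1113, followed by Id2 at 807, Id3 at 710 and Id4 at 302. Bmp4 had 73.8, Bmp5 32.0, Msx2 13.5, Bmp2 12.7 and Bmp6 11.2. Each neighboring pair in this order overlapped in its range over the control libraries apart from Id4 and Bmp4, where the lowest Id4 value was 148 and the highest Bmp4 value was 89.0. The scale of these read numbers is the smallest that gives whole parts of a read, and a whole multiple of it would give the same ratios. Such a multiple would raise the level of a gene, so this order is not settled. By the rounding step of the values, Bmp5 was in the class from a log2 level of 8 and Bmp4 in that from 4, the reverse of their order here.

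The second question was how the genes moved over time in each line. Slopes on day were fitted with limma to log2 values joined over the tables. In the control line 4 of 10 members had a slope past the threshold, 3 rising and 1 falling, where 42.5% of all genes did. Bmp6 rose by 0.22 ± 0.02 (SE) log2 units a day (adjusted p = 0.000582) and Id4 by 0.13 ± 0.03 (adjusted p = 0.00541). Msx2 fell by 0.14 ± 0.04 (SE) log2 units a day (limma adjusted p = 0.0117). Bmp4 rose by 0.05 ± 0.02 (SE) a day (limma adjusted p = 0.0461), a call lost on leaving out any 1 of days 1, 2, 3, 4, 8, 10, 12 and 14, with adjusted p up to 0.16. Bmp5 had 0.10 ± 0.04 (SE) log2 units a day and did not pass the test (limma adjusted p = 0.0688), and it passed without day 0 (0.13 a day, adjusted p = 0.0261).

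In the knockdown line 1 of 10 members passed, beside 13.5% of all genes. Bmp4 rose by 0.16 ± 0.03 (SE) log2 units a day (limma adjusted p = 0.0128), a call lost without day 14 (0.18 a day, adjusted p = 0.0525). Without day 14, 261 of all 13608 genes passed in this line. Id3 had 0.05 ± 0.02 (SE) and Msx2 -0.11 ± 0.04 (SE), neither past the threshold (limma adjusted p = 0.068 and 0.0986). Id3 passed without day 4 (adjusted p = 0.0309) and Msx2 without day 1 (adjusted p = 0.0339). Id4 had a slope of -0.002 ± 0.029 (SE) log2 units a day and Bmp6 0.02 ± 0.02 (SE) in the same line.

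**Figure D2:**
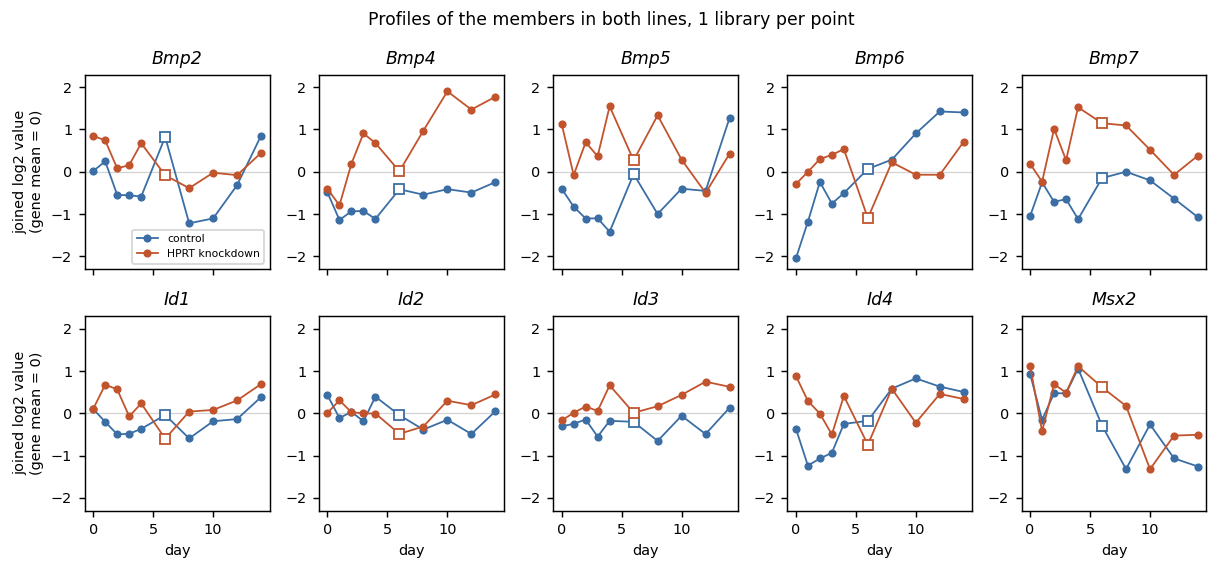
Joined log2 value of each member (vertical axis, relative to the gene's mean over the 20 libraries) against day, for the control (blue) and the HPRT knockdown (orange), 1 library per point and day 6 as open squares. The lines of Bmp4 part after day 1, and those of Bmp6 and Id4 cross.

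The slope of the ratio on day tests the difference of the trends itself, and 3 of 10 members passed, beside 14% of all genes. The ratio of Bmp6 fell by 0.20 ± 0.03 (SE) log2 units a day (limma adjusted p = 0.0076), that of Id4 fell by 0.14 ± 0.03 (adjusted p = 0.0215), and that of Bmp4 rose by 0.12 ± 0.03 (adjusted p = 0.0495). The call of Bmp6 was kept on leaving out any day. That of Id4 was lost without day 0 (adjusted p = 0.0515) and without day 12 (adjusted p = 0.0543). That of Bmp4 was lost without any 1 of days 0, 1, 2, 4, 8, 10, 12 and 14 (adjusted p up to 0.118) and with day 6 kept (adjusted p = 0.0929). The Bmp4 call was also lost with no filter (limma adjusted p = 0.0721) and with centred ratios (limma adjusted p = 0.05455).

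**Figure D3:**
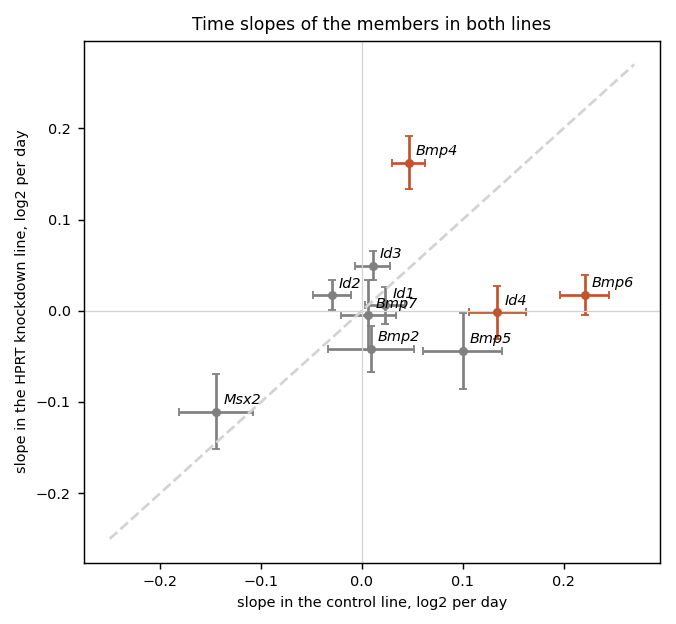
Slope of each member in the HPRT knockdown line (vertical axis) against that in the control line (horizontal axis), in log2 units per day, with standard errors from limma. Orange marks the 3 members called for a difference in slope between the lines, Bmp4 above the dashed line of equal slopes and Bmp6 and Id4 below it.

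The other 61 genes of the BMP pathway were grouped by role, and 50 passed the filter on low values. Of these, 23 were higher in the knockdown and 10 were lower, beside 3562 (26.2%) and 3579 of all 13608 genes tested. The median log2 ratio of the 50 was 0.27. With no filter 24 were higher and 13 were lower of 61. Of 4 other ligands tested, Bmp3, which opposes osteogenic BMPs, was higher (mean log2 ratio 3.11 ± 1.19, SD, n = 9 days; limma adjusted p = 0.000152). Gdf3, a ligand of pluripotent cells, was lower (-2.92 ± 2.12, SD, n = 9 days; limma adjusted p = 0.00373) and so was Gdf6 (-1.51; limma adjusted p = 0.00422). On day 6 Gdf3 was in the other direction, with a log2 ratio of 1.76.

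Of 9 receptors and coreceptors tested, 2 were higher and 4 were lower. Hfe2, also on this list, did not pass the filter on low values. Its mean log2 ratio was -4.46, lower on 8 of 9 days. Bmpr2, a type II receptor, had a mean log2 ratio of 0.71 ± 0.42 (SD, n = 9 days, limma adjusted p = 0.00194). Eng, an endothelial coreceptor, had -1.87 ± 1.02 (limma adjusted p = 0.000871). Day 6 had the opposite sign for both, with -0.30 for Bmpr2 and 0.67 for Eng. Acvr2a (-0.53) and Acvr2b (-1.29), also type II receptors, were lower, each on 8 of the 9 days (limma adjusted p = 0.00392 and 0.0055). The type I receptors Bmpr1a (0.21 ± 0.23) and Bmpr1b (0.42 ± 0.84) did not pass (limma adjusted p = 0.0521 and 0.192); Bmpr1a was near the threshold and passed without day 1 (adjusted p = 0.0255), with the stricter filter (0.039), with no filter (0.04998), with centred ratios (0.0323) and with the exact test per gene (0.0349), and Bmpr1b passed without day 8 (adjusted p = 0.0274). Of the 4 Smads, Smad9 (1.31 ± 0.66) and Smad5 (0.24 ± 0.12) were higher on each of the 9 days (limma adjusted p = 0.000612 and 0.00756), and on day 6 Smad5 was at -0.10. Smad1 had 0.04 ± 0.20 (SD, n = 9 days) and did not pass.

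Secreted antagonists and modulators of BMP, counted as 1 group, moved in both directions, with 7 of 13 tested higher and 2 lower. The group was not limited to proteins that bind the ligands, and Bmp1 and Tll1 were counted in it. Nog, encoding noggin, had a mean log2 ratio of 0.86 ± 0.47 (SD, n = 9 days; limma adjusted p = 0.00114) and was at -1.46 on day 6. Grem1 was higher, with 1.15 ± 0.98 and -1.33 on day 6 (limma adjusted p = 0.00889). Sostdc1 had the highest mean of the 13 genes tested, 1.27 ± 1.15 (limma adjusted p = 0.0117). Chrd, encoding chordin, had 0.36 ± 0.74 and did not pass. Of the lower genes, Fst had a mean log2 ratio of -1.74 (limma adjusted p = 0.000546) and was lower on each of the 9 days. With day 6 kept, Nog and Grem1 no longer passed (limma adjusted p = 0.0599 and 0.0534).

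Of the 7 inhibitors inside the cell or at its membrane, 2 were higher. Smad6, an inhibitory Smad that BMP itself induces, had a mean log2 ratio of 1.04 ± 0.63 (SD, n = 9 days; limma adjusted p = 0.00168). Bambi, a decoy receptor, had 0.41 ± 0.41 (limma adjusted p = 0.023). This call was lost without any 1 of days 2, 3, 4 and 8 (limma adjusted p up to 0.0548) and with day 6 kept (0.052). It was also lost with the exact sign-flip test over all genes (adjusted p = 0.0541). The ratio of Bambi on day 6 was -0.23. Smad7 had -0.04 ± 0.59 (SD, n = 9 days) and did not pass. Of 10 other targets tested, 7 were higher and 1 was lower. Msx3, a dorsal neural tube homeobox gene named after its values were seen, did not pass the filter on low values. Its mean log2 ratio was -3.87, lower on 9 of 9 days, with 38.2 to 150 normalized reads in the control and 1.15 to 24.1 in the knockdown. Lmx1a, a roof plate and midbrain dopaminergic factor, was highest (2.32 ± 1.01; limma adjusted p = 0.000283), and Msx1 was also higher (1.34 ± 1.003; adjusted p = 0.00458). Klf4, a pluripotency factor as well, was lower (-1.06 ± 0.72; limma adjusted p = 0.00289). Of the 3 E proteins that Id proteins bind, 2 were higher and 1 was lower. Tcf4 was higher (0.60 ± 0.29) and Tcf3 lower (-0.49 ± 0.22), both on each of the 9 days (limma adjusted p = 0.000911 and 0.000915) and both at 0.01 on day 6. Tcf12 was higher on 7 of 9 days (mean log2 ratio 0.28; limma adjusted p = 0.02345). Without the pairing by day Tcf3 no longer passed (limma adjusted p = 0.0523).

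**Figure D4:**
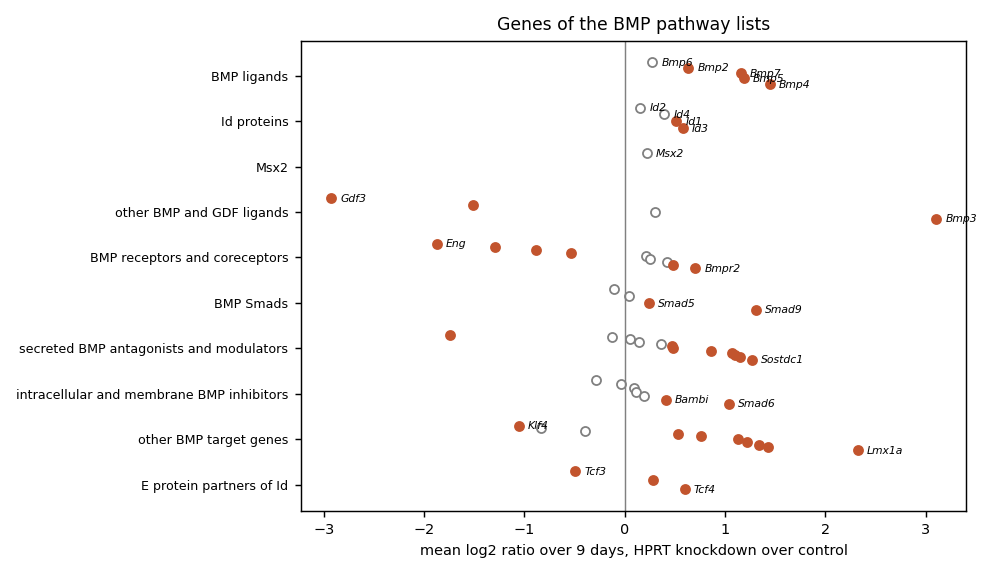
Mean log2 ratio over 9 days (horizontal axis) of the tested genes of the BMP pathway but 1 that is not reported here, grouped by role (vertical axis), with filled points for genes past an adjusted p of 0.05 and open points for the others. The ligand, Id and Msx2 groups at the top lie to the right of 0, and the receptor and antagonist groups spread to both sides.

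As a description, the genes with the most similar joined profile were sought over the 18 libraries of the 9 days. For Id1 they were Prdx5 (Pearson r = 0.914), Gyg (0.904) and Rnf215 (0.902), and for Id3 Ctdsp1 (0.884), Mxd4 (0.878) and Pi4kb (0.871). For Bmp4 they were Slc12a2 (0.956), Arl4a (0.955) and Rbm41 (0.937), and for Msx2 Luc7l3 (0.864), Crebzf (0.854) and Ppp1r13l (0.853). Among the members themselves the highest r was that of Bmp4 with Id3, 0.804. The libraries share lines, days and tables, so these values have no test.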

How the data were processed

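RNA-seq was done on 20 libraries, 10 per line, grouped by their labels. Per the study's methods, 50-cycle reads were aligned by ELAND in CASAVA 1.8.2 to mm9 and counted per gene in Avadis NGS, partial reads included, with DESeq normalization by the authors. The authors deposited 28 tables of log2 values, each centred on the mean of 2 libraries: 10 of the lines within a day and 9 per line of consecutive days. Normalization was separate in each table, and normalized counts up to 1 appear as a log2 value of 0, which understates ratios of low genes. Strand was not used. Per the study's methods the libraries were spread evenly over the lanes of 1 flow cell; which library ran in which lane is not given in the sources used here. The methods state depth as an average over libraries. Totals per library were not used here, relative depth was read from size factors, and no counting intervals are given.

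All 37561 entries shared by the tables were kept. The rounding step of the values gave each gene a level class; 13608 genes with a log2 level of at least 4 were tested. The step follows the lower of the 2 values in a table, so the filter can remove a gene that is low in 1 line only. Values were joined by least squares over 27 tables; the control table of days 3 and 4 was left out because only 0.182% of genes closed the loop of 4 tables it belongs to within 1e-05, beside 86.8% or more in the others. For 57 of 72 genes tried, ratios were whole multiples of 1 unit, taken as 1 of 49 parts of a read. Differences were tested with limma 3.58.1 in R 4.3.3 on daily ratios over 9 days, time slopes likewise, calling genes at a Benjamini-Hochberg adjusted p under 0.05; single genes also with an exact sign-flip permutation test. Days are successive collections of 1 culture line and stand in for replicates, so p-values measure the spread between days. Libraries were paired by the day of collection, which the labels give; their deviations from the line means correlated with r from 0.14 to 0.416 on 8 days and -0.0113 on day 0. Methods were tested on simulated data. The genes named are the 10 members, Hprt, the called genes with the highest and lowest mean of each pathway list, 13 further pathway genes and the 3 nearest profiles of 4 members; Gdf6, Msx3, Tcf12, Lum and Postn were added after their values were seen, and 1 gene that the rule names is not reported here. Members and lists were chosen with earlier results of these data known. Alternatives were a stricter and no filter, day 6 kept, each day left out, no pairing, centred ratios, neighboring-day tables, another time scale and an exact test per gene.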

Additional observations from a re-analysis of the deposited data

Results flagged for a closer look

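The slope of the ratio on day, that is, the difference of the trends of the 2 lines, passed the test for 3 members (limma, as given above). It was 0.12 log2 units a day for Bmp4, -0.20 for Bmp6 and -0.14 for Id4. Only the call of Bmp6 was kept on leaving out any day, and that of Bmp4 was near the threshold. In the control line the Bmp5 value of day 14 stood apart from the other 9 days, at 1.27 log2 units above the gene's mean over all libraries. Chance sets 1 library apart in this way in about 1 of 20 groups, and 30 groups of 10 values were examined.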

How the results depend on the processing

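With the stricter filter 5 members were tested, and fewer were called because fewer were tested: 3 between the lines, 1 with a trend in the control, 0 in the knockdown and 1 with a different trend, with 17 of 25 pathway genes between the lines. Leaving out 1 day gave 6 to 7 members between the lines and 3 to 5 with a trend in the control. It gave 0 to 2 with a trend in the knockdown, 2 without day 1 or day 4 and 0 without day 14. A different trend was called for 1 to 3, with 1 without day 0 or day 12. Over all 13608 genes, calls in the knockdown went from 1836 to 261 without day 14, 1921 without day 1 and 1354 without day 4. Calls of a different trend went from 1911 to 1264 without day 0 and 605 without day 12. Calls between the lines stayed between 6254 and 7265, and calls in the control between 4417 and 6112. Without the replicate block, that is, without pairing by day, 6 members, 30 pathway genes and 5752 of all genes were called, beside 6, 33 and 7141 with it. The mean ratios of the members kept their direction wherever they were called. Of the members' calls between the lines, Bmp2 was lost with day 6 kept and Bmp5 with the exact test per gene. Leaving out 350 entries whose identifier carries a position, chosen after seeing the data, called 7121 genes and the same number of members, 6. Adding up consecutive-day tables, also chosen after seeing the data, gave 3 members with a trend in the control and 1 in the knockdown. This sum included the control table of days 3 and 4, which was left out of the joined values. The pseudocount alternative was not run because the values were deposited as log2. Low read numbers limit what ratios of Bmp2, Bmp6 and Msx2 on single days can show; other causes were not tested.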
